A study of Mus musculus with 8 samples.

Results

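The genes described here are the pore-forming subunits of the voltage-gated potassium channels and their relatives of the Kcnh and Kcnq families. They were taken by symbol as the genes named Kcna, Kcnb, Kcnc, Kcnd, Kcnf, Kcng, Kcnh, Kcnq, Kcns or Kcnv followed by a number, with a mean of at least 10 counts over the 8 libraries. This gave 37 of the 40 genes so named, of which 33 are described here, among 54752 genes in the tables. The 3 below the limit were Kcna7 (mean of 1.75 counts), Kcna10 (1.25) and Kcnv2 (0.50). Just inside the limit were Kcnh8 with a mean of 11.9 counts and Kcnq1 with 18.5. All 33 entered the test and lie on 14 chromosomes, and 7 of them share at least 1 exon base with another gene.

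The study compared male wild-type C57BL/6 mice (substrain J in the methods of the study) 3 weeks after bilateral carotid artery stenosis (BCAS) with sham mice at the same time, to learn how the cortex responds to chronic low blood flow. In the BCAS mice a microcoil was placed around each common carotid artery, with the narrower coil on the right side, and sham mice went through the operation without coils. RNA was sequenced from the right cerebral cortex, the side of the narrower coil, in 4 sham and 4 BCAS mice with 1 mouse per library. All 8 mice were 14 weeks old in the sample sheet of the study.

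A voltage-gated potassium channel opens when the membrane depolarizes and lets potassium out, which ends the action potential and sets how soon the next can follow. Its pore is built from several subunits, and subunits mix mainly within a subfamily. Kcna (Kv1) channels control excitability along axons, Kcnb (Kv2) channels carry the slow delayed rectifier current of the soma, Kcnc (Kv3) channels allow fast firing, and Kcnd (Kv4) channels carry the transient current of dendrites. Kcnq (Kv7) channels carry the M-current that acetylcholine suppresses, and Kcnh channels comprise the ether-a-go-go (EAG), ERG and ELK groups. The modifier subunits Kcnf, Kcng, Kcns and Kcnv form no channel alone and join Kcnb subunits to change their gating.

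Each library held 16759364 to 21794435 counts, and a count of 0 allows up to 0.132 to 0.187 CPM (counts scaled to TMM-normalized library sizes, at the level of 3 counts, for counting error only). Several cell type marker lists differed between the groups, where 12.8% of all genes were lower and 19.2% higher. Of 18 pan-neuronal genes 11 were lower and none higher in BCAS mice in edgeR's test (median log2 fold change -0.71), and their summed level was 12740 to 14216 CPM in sham and 4922 to 10996 CPM in BCAS mice. The same test called 6 of 11 excitatory neuron markers of cortex lower, with sums of 6522 to 8212 CPM in sham mice, and 4 of 10 inhibitory neuron markers. It called all 12 microglia markers higher (summed 420.1 to 512 CPM in sham and 2088 to 8235 CPM in BCAS mice), as well as 8 of 10 astrocyte, 4 of 7 pericyte and smooth muscle, 3 of 7 oligodendrocyte precursor and 2 of 8 endothelial markers. No oligodendrocyte marker of 10 and no choroid plexus marker of 7 was called, although sham mouse 3 held the highest choroid plexus sum, and 1 of 8 striatal markers was higher, with the highest striatal sum in BCAS mouse 4. The part of these shifts in the potassium channel results was not tested.

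Most voltage-gated potassium channel subunits were lower in the cortex of BCAS mice and none was called higher relative to the whole library, whereas with libraries scaled on 18 pan-neuronal genes 2 were lower and 2 higher, against 0.298% and 57.1% of all genes. Of the 33 genes, 20 (60.6%) had an adjusted p under 0.05 and a lower level in the quasi-likelihood test of edgeR (Benjamini-Hochberg adjusted), against 12.8% of the 17136 genes tested. In the other direction edgeR called 0 of 33 against 19.2% of all genes, with 1 gene (Kcnq1) higher at an unadjusted p under 0.05, and DESeq2 and limma-voom also called 0. The fold change was negative for 30 of 33 genes, against 50.5% of all genes. The members had a median log2 fold change of -0.62, while the median of all genes was -0.01. In the median gene the level in BCAS mice was 64.9% of that in sham mice, and it ranged from 45.5% to 78.2% among the 20 lower genes. In bulk tissue, fewer cells of a type and less RNA per cell cannot be told apart.

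With a log2 fold change beyond 1 as a second threshold, 5 genes (15.2%) were lower, against 1.28% of all genes: Kcnv1, Kcnh7, Kcns1, Kcnq5 and Kcng2. Without BCAS mouse 1 none passed both thresholds, without sham mouse 1 the number was 2, without BCAS mouse 4 it was 3, and without BCAS mouse 2 it was 12. The share of all genes past both thresholds in these fits was not counted. At the adjusted p threshold alone, 11.2%, 2.37%, 4.03% and 20.9% of all genes were lower in them, in the same order. All 4 BCAS mice lay below all 4 sham mice in 18 of 33 genes (54.5%), against 16.3% of all genes, and lay above them in none, against 18.5%. These 18 genes were all among the 20 called lower. The called genes whose groups overlapped were Kcnh2 and Kcns3. The number called lower fell to 9 without sham mouse 1 (2.37% of all genes lower), 12 without sham mouse 2 (2.95%), 11 without sham mouse 4 (3.09%) and 13 without BCAS mouse 3 (4.19%) or BCAS mouse 4 (4.03%). Kcnv1, Kcnh7, Kcnq5, Kcnh1, Kcns2, Kcnh3, Kcnh4, Kcnb2 and Kcnd2 were called in all 8 such fits. How many of all genes were called lower in all 8 was not counted. Among the 22 genes at or above 5 CPM per kilobase of exon in sham mice, 16 were lower, and among the 11 below that level 4 were. This split rests on the sham level itself. The share of all genes lower at each level was not counted, so the 2 numbers describe these members only.

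**Figure D1:**
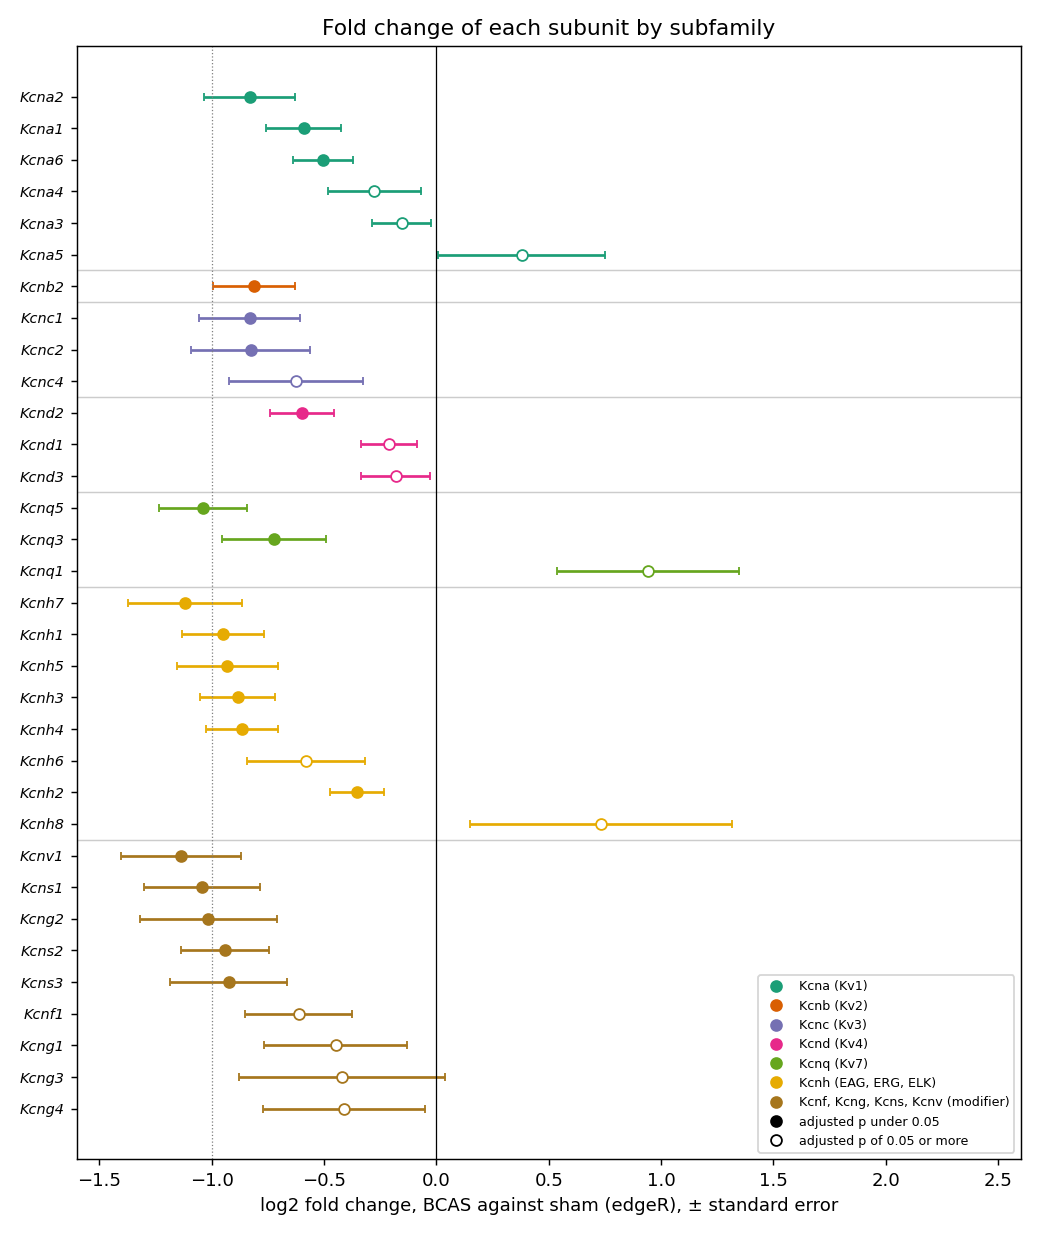
The log2 fold change of BCAS against sham mice (x axis) with TMM scaling is shown for each of the 33 subunits, ordered by subfamily, with bars of 1 standard error. Filled points mark the 20 genes with an adjusted p under 0.05 and open points the other 13, and the filled points all lie below 0, from -1.14 to -0.35.

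The subfamilies differed in how many members were called. In edgeR's test 3 of 6 Kcna, 2 of 3 Kcnc, 1 of 3 Kcnd, 2 of 3 Kcnq, 6 of 8 Kcnh and 5 of 9 modifier genes were lower, as was Kcnb2, the Kcnb gene described here. Their median log2 fold changes were -0.39 for Kcna, -0.83 for Kcnc, -0.21 for Kcnd, -0.72 for Kcnq, -0.88 for Kcnh and -0.93 for the modifiers. The medians of Kcna and Kcnd are positive when libraries are scaled on pan-neuronal genes. The differences between subfamilies were not tested.

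Promoter sequence of 2 genes past both thresholds is shown because their starts lie in windows rich in CpG and GC boxes, as most member windows do. The windows run from 250 bases before to 50 after a transcript start in RefSeq (GRCm38.p6), and 23 of 33 members matched, with 28 windows. A GC box (GGGCGG on either strand) was found in 18 of 28 windows (64.3%), against 35.7% of all 32851 windows. The median window held 20 CpG, against 7 in all windows. No member window held TATAAA (13.6% of all windows) or TGACGTCA (1.79%) on either strand. Kcnh7 (chr2:63184238-63184537, minus strand) has 4 GC boxes and 21 CpG, and Kcns1 (chr2:164171064-164171363, minus strand) has 2 GC boxes and 22 CpG. The sequences read 5′ to 3′ along the gene, with the GC boxes in capitals. A motif match is a description of the letters only.
Kcnh7: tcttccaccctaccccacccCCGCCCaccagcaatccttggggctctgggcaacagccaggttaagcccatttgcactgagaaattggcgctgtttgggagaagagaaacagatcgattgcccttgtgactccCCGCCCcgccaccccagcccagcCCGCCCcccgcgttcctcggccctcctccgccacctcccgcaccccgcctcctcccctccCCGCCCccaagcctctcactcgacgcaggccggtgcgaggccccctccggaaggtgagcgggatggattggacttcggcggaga
Kcns1: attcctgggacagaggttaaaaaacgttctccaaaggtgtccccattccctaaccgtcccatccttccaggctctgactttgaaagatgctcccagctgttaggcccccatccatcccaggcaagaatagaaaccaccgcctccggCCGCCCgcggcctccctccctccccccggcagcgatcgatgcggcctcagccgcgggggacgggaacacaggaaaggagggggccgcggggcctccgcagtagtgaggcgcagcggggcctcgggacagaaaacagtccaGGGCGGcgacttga
Kcnq5, also past both thresholds, had 2 windows, and neither held any of the 3 motifs. Of the other genes past both thresholds, Kcnv1 had no matching window and Kcng2 was left out of this display.

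In the Kcna subfamily, the axonal subunits Kcna1, Kcna2 and Kcna6 were lower, although Kcna1 and Kcna6 are positive with pan-neuronal scaling (log2 fold changes of 0.15 and 0.22). Values are given for mice 1, 2, 3 and 4 of each group, in that order. Kcna2 (ENSMUSG00000040724.5, chromosome 3, 107101146 to 107115005), the subfamily's highest member per kilobase, sits at axon initial segments and beside the nodes of myelinated axons. It had 495, 408, 332 and 423 CPM in the sham mice and 152, 294, 258 and 226 CPM in the BCAS mice. Every BCAS mouse was below every sham mouse, and the mean fell from 414 ± 66.9 to 233 ± 60.4 CPM (mean ± SD, n = 4 and 4), a log2 fold change of -0.83 (SE 0.20, edgeR adjusted p = 0.0178). Kcna1 (ENSMUSG00000047976.4, chromosome 6, 126640397 to 126646384), its partner in these channels and the gene of episodic ataxia, had 122, 106, 77.0 and 102 CPM in the sham mice and 49.98, 74.1, 76.4 and 69.5 CPM in the BCAS mice. The groups were separated only narrowly, between sham mouse 3 and BCAS mouse 3, with a log2 fold change of -0.59 (SE 0.17, edgeR adjusted p = 0.0287). Kcna6 (ENSMUSG00000038077.7, chromosome 6, 126708329 to 126740674), a further Kv1 subunit of neurons, had 96.3, 99.2, 84.3 and 93.3 CPM in the sham mice and 49.3, 77.5, 66.2 and 69.9 CPM in the BCAS mice. Its groups did not overlap, with a log2 fold change of -0.51 (SE 0.13, edgeR adjusted p = 0.0223), although 39.6% of its exon bases are shared with the opposite-strand gene Gm26673.

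Kcna4, which gives a rapidly inactivating current, and Kcna3, best known from lymphocytes, overlapped between groups. The fold change of Kcna4 was -0.28 (SE 0.21, edgeR adjusted p = 0.320) and that of Kcna3 -0.15 (SE 0.13, adjusted p = 0.379), both log2. The genes lie in clusters, with Kcna2 and Kcna3 side by side on chromosome 3 and Kcna1, Kcna5 and Kcna6 together on chromosome 6. Kcna5 (ENSMUSG00000045534.4, chromosome 6, 126532551 to 126535412), the ultra-rapid delayed rectifier of heart and vascular muscle, ran the other way without passing the test. It had 2.78, 7.30, 6.06 and 5.37 CPM in the sham mice and 8.13, 5.31, 3.73 and 10.8 CPM in the BCAS mice. The highest levels were those of BCAS mice 4 and 1, and the lowest was that of sham mouse 1, with a log2 fold change of 0.38 (SE 0.37, edgeR adjusted p = 0.451). Leaving out a library ended some calls. Kcna2 was not called without sham mouse 1 (edgeR, adjusted p = 0.0562), Kcna1 without sham mouse 1, 2 or 4 or BCAS mouse 4 (edgeR, adjusted p from 0.0626 to 0.0811) and Kcna6 without sham mouse 1, 2 or 4 or BCAS mouse 3 (edgeR, adjusted p from 0.0560 to 0.0642).

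Kcnb2 (ENSMUSG00000092083.4, chromosome 1, 15287254 to 15723750), a delayed rectifier subunit of neurons, was lower. It had 46.9, 52.4, 52.3 and 55.0 CPM in the sham mice and 22.9, 41.7, 29.8 and 23.4 CPM in the BCAS mice. All BCAS mice lay below all sham mice, and the mean fell from 51.7 ± 3.41 to 29.4 ± 8.78 CPM (mean ± SD, n = 4 and 4), a log2 fold change of -0.81 (SE 0.18, edgeR adjusted p = 0.0137). Per kilobase, Kcnb2 stood at 3.41 CPM per kilobase in sham mice and 1.94 in BCAS mice.

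Among the Kcnc genes, Kcnc1 and Kcnc2 were lower. Kcnc1 (ENSMUSG00000058975.7, chromosome 7, 46396497 to 46438704), which supports fast firing of parvalbumin interneurons, had 364, 272, 236 and 286 CPM in the sham mice and 99.2, 214, 166 and 171 CPM in the BCAS mice. All BCAS mice were below all sham mice, with a log2 fold change of -0.83 (SE 0.22, edgeR adjusted p = 0.0243). Kcnc2 (ENSMUSG00000035681.7, chromosome 10, 112271121 to 112467024), also used by fast-spiking interneurons, had 173, 149, 147 and 146 CPM in the sham mice and 45.1, 126, 102 and 73.7 CPM in the BCAS mice. BCAS mouse 2 came closest to the sham range, and the fit gave a log2 fold change of -0.83 (SE 0.26, edgeR adjusted p = 0.0418).

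Kcnc4 (ENSMUSG00000027895.9, chromosome 3, 107438303 to 107459552), the inactivating Kv3 subunit, had the highest level per kilobase of these 3, at 31.8 CPM per kilobase in sham mice and 20.6 in BCAS mice. It had 119, 114, 128 and 106 CPM in the sham mice and 33.9, 116, 82.7 and 69.5 CPM in the BCAS mice. BCAS mouse 2 lay inside the sham range, while the other BCAS mice lay below it, and the log2 fold change of -0.62 (SE 0.30, edgeR adjusted p = 0.133) did not pass. Without BCAS mouse 2 Kcnc4 was called (log2 fold change -0.90, edgeR adjusted p = 0.0174). Kcnc1 missed the threshold without sham mouse 1, 2 or 4 or BCAS mouse 3 or 4 (edgeR, adjusted p from 0.0543 to 0.0722), and Kcnc2 without sham mouse 1, 2, 3 or 4 or BCAS mouse 3 or 4 (edgeR, adjusted p from 0.0668 to 0.103). Scaling on library size alone also ended the call of Kcnc2 (edgeR adjusted p = 0.0521).

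In the Kcnd subfamily, only Kcnd2 (ENSMUSG00000060882.5, chromosome 6, 21215503 to 21729805) passed the test, and with pan-neuronal scaling its log2 fold change is 0.12. It carries most of the transient current of pyramidal cell dendrites and had 128, 136, 128 and 137 CPM in the sham mice and 65.3, 110.0, 82.4 and 91.2 CPM in the BCAS mice. The sham mice lay close together and every BCAS mouse was below them, with a log2 fold change of -0.60 (SE 0.14, edgeR adjusted p = 0.0163). Kcnd3, another transient-current subunit, overlapped between groups, with a log2 fold change of -0.18 (SE 0.15, edgeR adjusted p = 0.382), and was called higher with pan-neuronal scaling (log2 fold change of 0.55, edgeR adjusted p = 0.0423). Kcnd1, the least abundant of the subfamily, had a log2 fold change of -0.21 (SE 0.13, edgeR adjusted p = 0.218).

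Of the Kcnq genes, Kcnq3 and Kcnq5 were lower. Kcnq5 (ENSMUSG00000028033.16, chromosome 1, 21398403 to 21961942), an M-channel subunit of cortex and hippocampus, had 179, 175, 126 and 169.5 CPM in the sham mice and 50.6, 92.1, 90.9 and 83.0 CPM in the BCAS mice. No BCAS mouse reached the sham range, and the log2 fold change of -1.04 (SE 0.20, edgeR adjusted p = 0.00720) left BCAS mice at 48.7% of sham mice. Kcnq3 (ENSMUSG00000056258.9, chromosome 15, 65986387 to 66286642), an M-channel subunit mutated in familial neonatal epilepsy, had 307, 295, 317 and 291 CPM in the sham mice and 102, 250.4, 208 and 173 CPM in the BCAS mice. All BCAS mice were below all sham mice, with a log2 fold change of -0.72 (SE 0.23, edgeR adjusted p = 0.0409).

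Kcnq1 (ENSMUSG00000009545.14, chromosome 7, 143106362 to 143427042), the slow repolarizing channel of heart and epithelia, had a positive fold change. It had 0.625, 0.312, 0.572 and 1.15 CPM in the sham mice and 1.85, 0.876, 1.24 and 1.14 CPM in the BCAS mice, which were 5 to 19 counts in sham and 17 to 42 counts in BCAS libraries. BCAS mouse 1 was highest, the groups overlapped, and the log2 fold change of 0.94 (SE 0.41, edgeR adjusted p = 0.0995) did not pass. Part of its exon bases (3.0%) is shared with Kcnq1ot1 on the opposite strand. Kcnq3 was not called without sham mouse 1, 2, 3 or 4 or BCAS mouse 3 or 4 (edgeR, adjusted p from 0.0694 to 0.0942), nor with library size alone (edgeR adjusted p = 0.0545).

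The Kcnh family held the largest number of lower genes, 6 of 8, of which Kcnh2 is positive with pan-neuronal scaling (log2 fold change of 0.41). Both EAG genes fell. Kcnh1 (ENSMUSG00000058248.12, chromosome 1, 192190774 to 192510159), whose gain of function causes an epileptic syndrome, had 143, 142, 121 and 134 CPM in the sham mice and 43.6, 84.0, 76.7 and 75.0 CPM in the BCAS mice. The groups were far apart, with a log2 fold change of -0.95 (SE 0.18, edgeR adjusted p = 0.00778). Kcnh5 (ENSMUSG00000034402.3, chromosome 12, 74897220 to 75177332), its closest relative, had 32.5, 26.7, 27.6 and 31.0 CPM in the sham mice and 9.10, 19.1, 19.9 and 13.7 CPM in the BCAS mice. Here again no BCAS mouse reached the sham range, with a log2 fold change of -0.93 (SE 0.23, edgeR adjusted p = 0.0174). Among the ELK genes, Kcnh3 (ENSMUSG00000037579.7, chromosome 15, 99224861 to 99242817), a forebrain channel and the highest Kcnh gene per kilobase, had 248, 219.6, 181 and 228 CPM in the sham mice and 93.7, 158, 110.2 and 113 CPM in the BCAS mice. The groups did not overlap, with a log2 fold change of -0.88 (SE 0.17, edgeR adjusted p = 0.00712). Kcnh4 (ENSMUSG00000035355.15, chromosome 11, 100740376 to 100759942), a less abundant forebrain relative, had 19.5, 18.1, 14.9 and 22.3 CPM in the sham mice and 8.48, 11.6, 9.29 and 11.6 CPM in the BCAS mice. Its groups were apart as well, with a log2 fold change of -0.87 (SE 0.16, edgeR adjusted p = 0.00688), the smallest adjusted p of the 33 genes.

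The third ELK gene, Kcnh8 (ENSMUSG00000035580.10, chromosome 17, 52602709 to 52979194), was near the limit of detection. It had 0.227, 0.125, 1.09 and 0.422 CPM in the sham mice and 1.19, 0.567, 0.540 and 0.817 CPM in the BCAS mice, from 2 to 19 counts in sham and 10 to 27 counts in BCAS libraries. Sham mouse 3 lay inside the BCAS range, and the log2 fold change of 0.73 (SE 0.58, edgeR adjusted p = 0.352) did not pass. Its mean in the sham libraries was under 10 counts, so it met the limit for members only through the BCAS libraries, which favours a positive fold change. Without sham mouse 3 the log2 fold change was 1.56, also not called. In the ERG group, Kcnh7 (ENSMUSG00000059742.10, chromosome 2, 62693414 to 63184287), a neuronal ERG channel, had 245, 196, 158 and 218 CPM in the sham mice and 53.7, 129.6, 109.9 and 82.8 CPM in the BCAS mice. All BCAS mice lay below all sham mice, with a log2 fold change of -1.12 (SE 0.25, edgeR adjusted p = 0.0138). Kcnh2 (ENSMUSG00000038319.14, chromosome 5, 24319589 to 24351604), the repolarizing channel of the heart that also works in neurons, had 46.8, 52.3, 41.9 and 45.9 CPM in the sham mice and 30.9, 38.4, 33.7 and 43.3 CPM in the BCAS mice. BCAS mouse 4 lay above sham mouse 3, and the log2 fold change of -0.35 (SE 0.12, edgeR adjusted p = 0.0499) was the smallest fall called. Kcnh6, the remaining ERG gene, had a log2 fold change of -0.58 (SE 0.26, edgeR adjusted p = 0.115). Kcnh5 was not called without sham mouse 1 or 4 (edgeR, adjusted p from 0.0501 to 0.0536), and Kcnh2 without sham mouse 1, 2, 3 or 4 or BCAS mouse 1 or 3 (edgeR, adjusted p from 0.0536 to 0.126). The call of Kcnh2 also ended with library size alone (edgeR adjusted p = 0.116), without the filter on low counts (0.0755) and with at least 10 counts in every library (0.0547).

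Within a library, the ratio of Kcnh7 counts to Kcnh2 counts does not depend on how libraries are scaled. It was 3.75 to 5.23 in sham mice and 1.74 to 3.37 in BCAS mice, without overlap. This pair was 1 of 10 pairs of subunits looked at, all chosen with the fold changes known. Some of the 10 pairs hold a gene that is not among the 33 described. In the other 9 pairs the groups overlapped. Kcna2 to Kcna1, for example, gave 3.84 to 4.31 in sham and 3.05 to 3.97 in BCAS mice, and Kcnd2 to Kcnd3 gave 1.15 to 1.69 and 0.982 to 1.23.

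Among the modifiers, Kcnv1, the 3 Kcns genes and Kcng2 were lower. Kcnv1 (ENSMUSG00000022342.6, chromosome 15, 45106284 to 45114920), a silent subunit that reduces Kcnb currents, had 144, 149, 135 and 162 CPM in the sham mice and 36.9, 103, 72.8 and 55.0 CPM in the BCAS mice. The groups did not overlap, and the mean fell from 147 ± 11.1 to 67.0 ± 28.4 CPM (mean ± SD, n = 4 and 4), a log2 fold change of -1.14 (SE 0.26, edgeR adjusted p = 0.0153). Kcns1 (ENSMUSG00000040164.3, chromosome 2, 164163619 to 164171113), variants of which have been linked to chronic pain, had 41.1, 24.5, 24.0 and 27.3 CPM in the sham mice and 9.98, 18.7, 17.6 and 10.5 CPM in the BCAS mice. No BCAS mouse reached the lowest sham mouse, and the fit gave a log2 fold change of -1.04 (SE 0.26, edgeR adjusted p = 0.0188). Kcns2 (ENSMUSG00000050963.7, chromosome 15, 34837355 to 34843407), a further Kcnb modifier, had 64.6, 58.8, 47.9 and 46.7 CPM in the sham mice and 18.8, 37.0, 29.0 and 28.9 CPM in the BCAS mice. The groups were apart, with a log2 fold change of -0.94 (SE 0.20, edgeR adjusted p = 0.0104). Kcns3 (ENSMUSG00000043673.11, chromosome 12, 11090202 to 11151056), a modifier of parvalbumin interneurons, had 10.002, 8.67, 6.23 and 8.93 CPM in the sham mice and 2.77, 6.34, 4.81 and 3.92 CPM in the BCAS mice. BCAS mouse 2 was slightly above sham mouse 3, and the fit gave a log2 fold change of -0.93 (SE 0.26, edgeR adjusted p = 0.0285).

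Kcng2 (ENSMUSG00000059852.7, chromosome 18, 80294546 to 80364254), a Kv6 modifier, had 12.1, 8.05, 9.21 and 9.47 CPM in the sham mice and 2.81, 7.52, 3.35 and 5.56 CPM in the BCAS mice. BCAS mouse 2 came close below the lowest sham mouse, and the log2 fold change of -1.02 (SE 0.30, edgeR adjusted p = 0.0339) placed it past both thresholds. Another gene, D330025C20Rik, covers 9.1% of its exon bases. Kcnf1 (ENSMUSG00000051726.6, chromosome 12, 17172100 to 17176888), the Kv5 subunit and the highest modifier per kilobase at 36.01 CPM per kilobase in sham mice and 23.5 in BCAS mice, had 138, 168, 199.9 and 184 CPM in the sham mice and 66.9, 160.0, 122 and 102 CPM in the BCAS mice. BCAS mouse 2 lay within the sham range, and the log2 fold change of -0.61 (SE 0.24, edgeR adjusted p = 0.0740) did not pass. Kcng1, Kcng3 and Kcng4, 3 other Kv6 genes, had log2 fold changes of -0.45, -0.42 and -0.41 with overlapping groups. Kcns1 was not called without sham mouse 1 or BCAS mouse 4 (edgeR, adjusted p from 0.0504 to 0.0538), Kcns3 without sham mouse 1, 2 or 4 or BCAS mouse 3 or 4 (edgeR, adjusted p from 0.0612 to 0.0799) and Kcng2 without sham mouse 1, 2, 3 or 4 or BCAS mouse 3 or 4 (edgeR, adjusted p from 0.0609 to 0.0931). DESeq2 called Kcnf1 lower (log2 fold change -0.62, adjusted p = 0.0408). Without BCAS mouse 2, edgeR called Kcnf1 (adjusted p = 0.0104) and Kcng1 (adjusted p = 0.0327) lower.

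**Figure D2:**
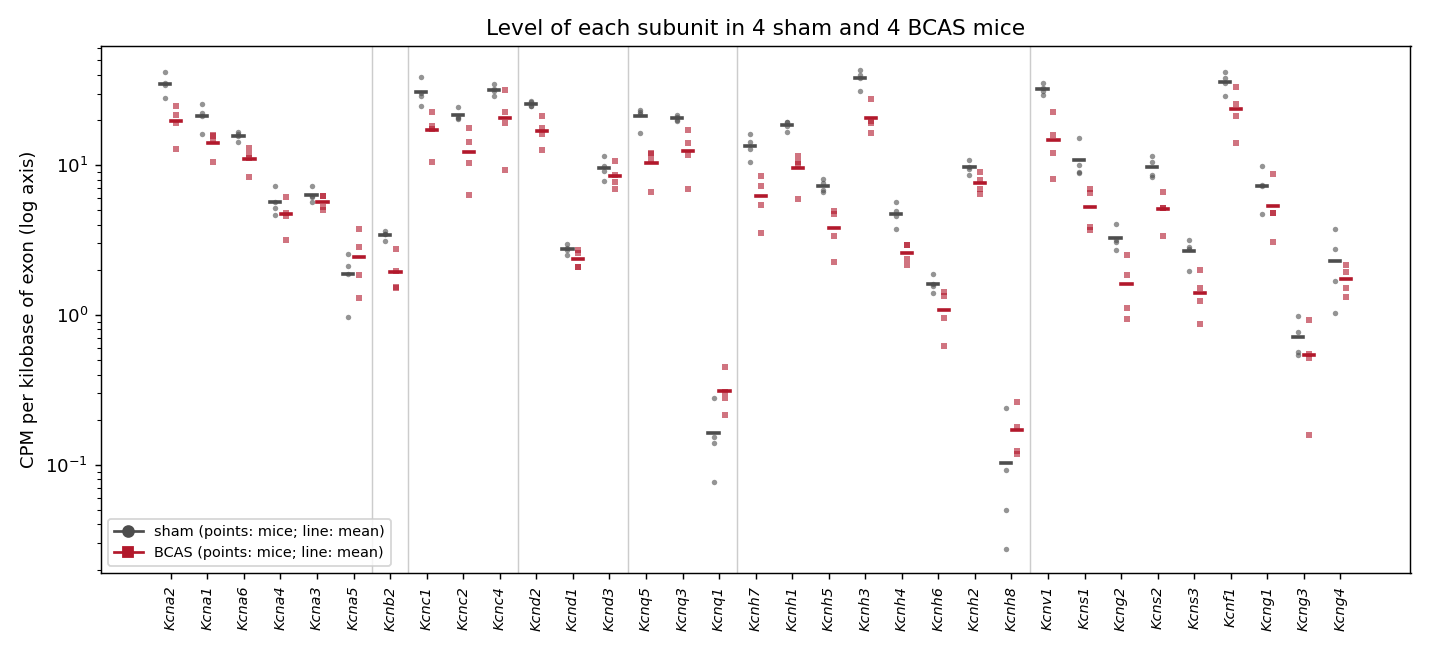
Levels of the 33 subunits are given as CPM per kilobase of exon on a log axis, with 1 point per mouse and a line at each group mean (grey, 4 sham; red, 4 BCAS). Sham means run from 0.102 for Kcnh8 to 38.1 for Kcnh3, and the red line is above the grey one only for Kcna5, Kcnh8 and Kcnq1.

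Levels between genes can be compared per kilobase of exon. In sham mice the highest were Kcnh3 (38.1 ± 4.91 CPM per kilobase, mean ± SD, n = 4), Kcnf1 (36.01 ± 5.51), Kcna2 (34.8 ± 5.62), Kcnv1 (32.1 ± 2.42) and Kcnc4 (31.8 ± 2.58). Each of these 5 differed from the next by less than its spread. In BCAS mice Kcnf1 (23.5 ± 8.13), Kcnc4 (20.6 ± 9.31) and Kcnh3 (20.6 ± 4.80) were the highest, again within their spread.

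Summed over the 33 genes, the level stood at 479, 449, 420.4 and 455 CPM per kilobase for sham mice, compared with 179, 356, 284 and 264 for BCAS mice. BCAS mouse 1 was lowest and BCAS mouse 2 nearest the sham range, which no BCAS mouse reached, and the mean sum in BCAS mice was 60.1% of that in sham mice. Per subfamily and over the genes described, the Kcna sum went from 85.6 ± 8.37 to 57.5 ± 10.4 CPM per kilobase (mean ± SD, n = 4 and 4) and Kcnb2 went from 3.41 ± 0.225 to 1.94 ± 0.579 CPM per kilobase (mean ± SD, n = 4 and 4). The Kcnc sum went from 83.9 ± 7.44 to 49.9 ± 19.0 CPM per kilobase (mean ± SD, n = 4 and 4) and the Kcnd sum from 38.0 ± 1.75 to 27.8 ± 5.32 CPM per kilobase (mean ± SD, n = 4 and 4). The Kcnq sum went from 41.8 ± 2.64 to 23.1 ± 6.61 CPM per kilobase (mean ± SD, n = 4 and 4), the Kcnh sum from 93.3 ± 9.98 to 51.5 ± 11.1 CPM per kilobase (mean ± SD, n = 4 and 4) and the modifier sum from 105 ± 2.89 to 59.1 ± 20.6 CPM per kilobase (mean ± SD, n = 4 and 4). In BCAS mice these sums were 55.1% of sham for Kcnq, 55.3% for Kcnh, 56.3% for the modifiers, 57.0% for Kcnb2, 59.6% for Kcnc, 67.2% for Kcna and 73.1% for Kcnd. As a share of the level summed over the 33 genes, which does not depend on the scaling, Kcnd took 7.39% to 9.30% in sham and 9.38% to 12.1% in BCAS mice. Of the 7 subfamilies only Kcnd had shares whose groups did not overlap, and only by the gap between sham mouse 3 and BCAS mouse 3. The Kcna share was 17.8% to 19.8% in sham and 19.0% to 23.8% in BCAS mice.

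**Figure D3:**
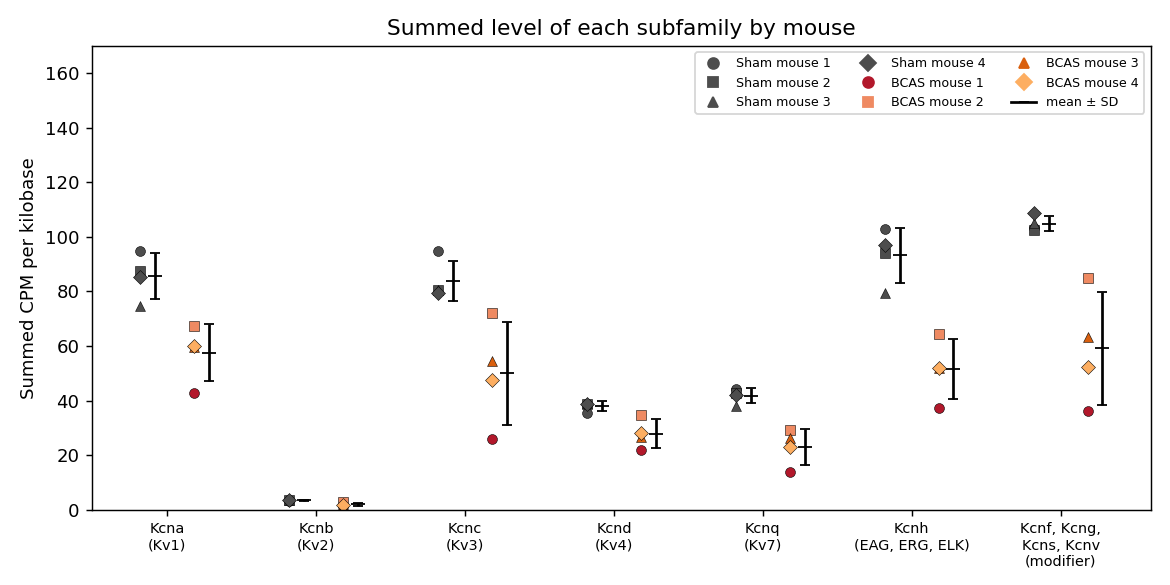
Each point is the CPM per kilobase of exon summed over the described members of a subfamily (Kcnb holds Kcnb2 alone) in 1 mouse (grey, 4 sham; red to orange, 4 BCAS), with mean ± SD beside the points. In all 7 subfamilies the 4 BCAS mice lie below the 4 sham mice, and BCAS mouse 1 is the lowest.

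The BCAS mice differed among themselves, with the same mice at the ends of the range for most members. BCAS mouse 1 was the lowest of the 4 in 27 of 33 genes and in all 20 lower genes. BCAS mouse 2 was the highest in 24 of 33 genes and in 17 of the 20. The same order was not counted over all genes, so it is not shown to be particular to these channels. The pan-neuronal markers also had these mice at the ends, with a mean log2 difference from sham of -1.41 in BCAS mouse 1, -0.25 in mouse 2, -0.61 in mouse 3 and -0.66 in mouse 4. Microglia markers had the same mice at opposite ends (4.00 in BCAS mouse 1, 2.11 in mouse 2, 3.03 in mouse 3 and 3.06 in mouse 4), as did astrocyte markers (1.18 in mouse 1 and 0.51 in mouse 2). The part of these markers in the order was not tested.

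**Figure D4:**
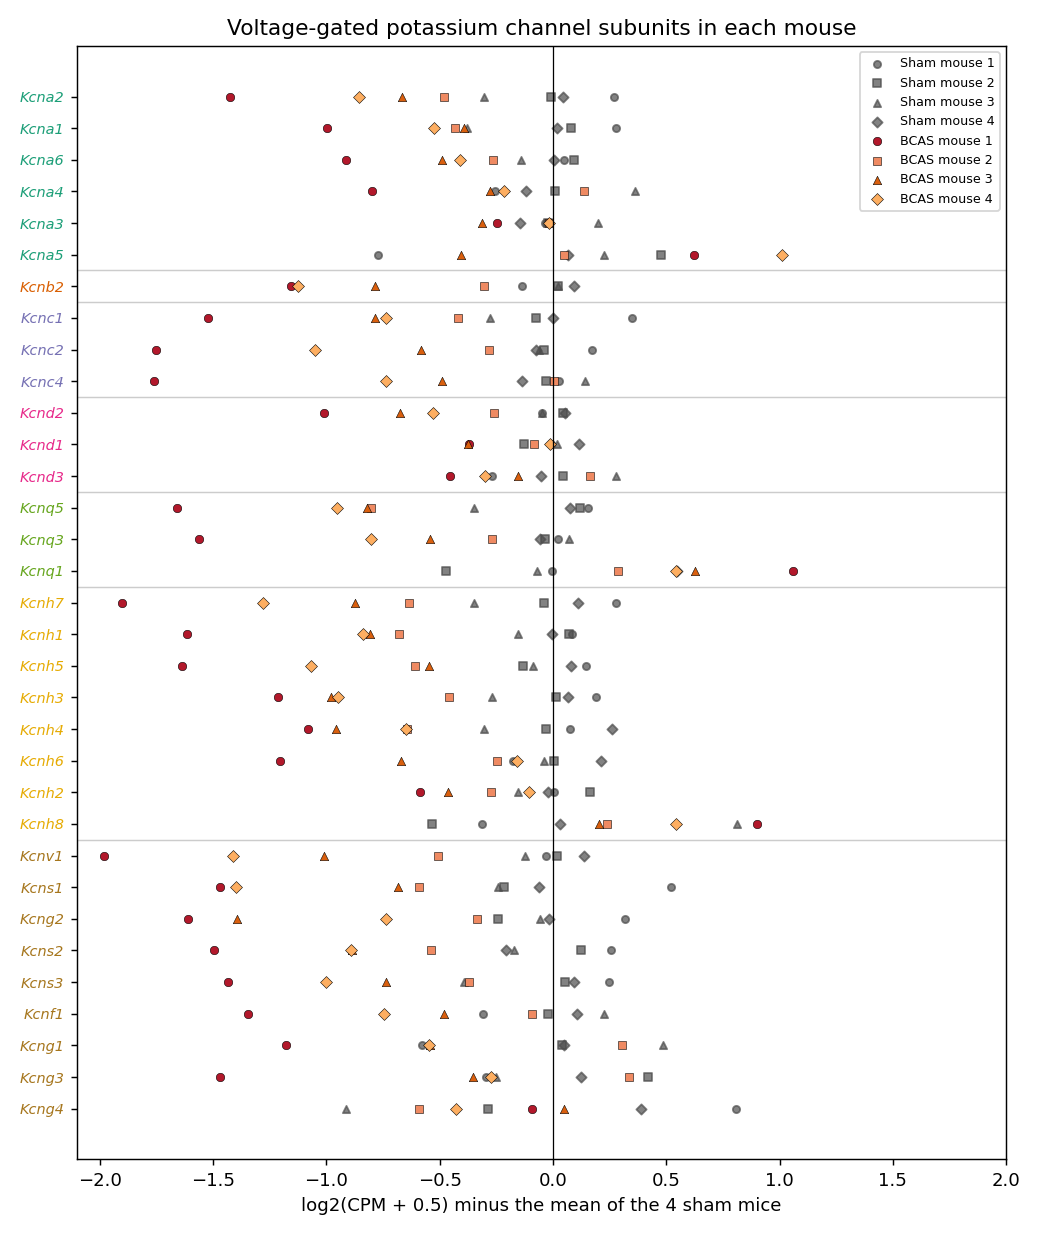
Each row is a subunit and each point a mouse, placed by log2(CPM + 0.5) minus the mean of the 4 sham mice (grey, sham; red to orange, BCAS). BCAS mouse 1 (dark red circles) is lowest of the BCAS mice in 27 of 33 rows and BCAS mouse 2 (light squares) highest in 24.

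To set the channels beside neurons as a whole, the libraries were also scaled on the 18 pan-neuronal genes. This scaling moves the median log2 fold change of all genes to 0.79, with 0.298% of them lower and 57.1% higher. Under it the median of the 33 subunits was -0.0024, and 17 fold changes were negative and 16 positive. Kcnh7 (log2 fold change -0.45, edgeR adjusted p = 0.0419) and Kcnv1 (-0.49, adjusted p = 0.0320) were lower. Kcnd3 (0.55, edgeR adjusted p = 0.0423) and Kcnq1 (1.82, adjusted p = 0.0242) were higher. By subfamily, the medians were 0.32 for Kcna and 0.55 for Kcnd, against -0.06 for Kcnq, -0.14 for Kcnc, -0.13 for Kcnh and -0.24 for the modifiers. With TMM scaling, the medians were -0.62 for the 33 subunits and -0.71 for the 18 pan-neuronal genes.

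**Figure D5:**
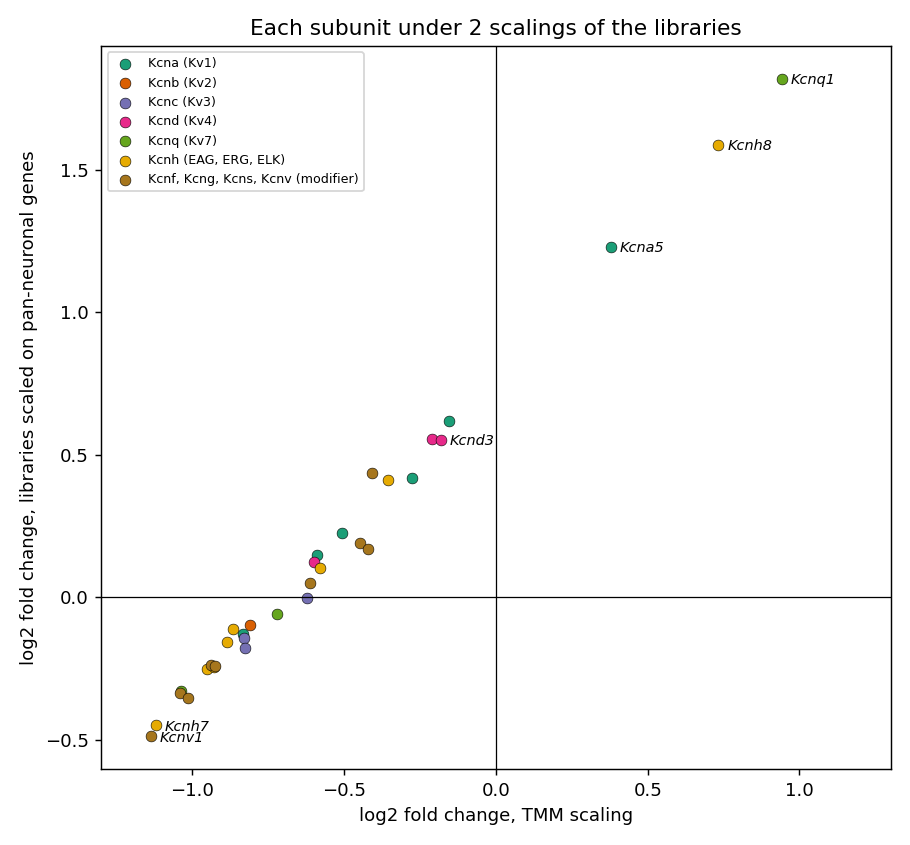
Each point is a subunit, placed by its log2 fold change with TMM scaling, edgeR's trimmed-mean normalization (x axis) and with libraries scaled on 18 pan-neuronal genes (y axis), coloured by subfamily. The second scaling puts 16 of 33 points above 0, where TMM scaling puts 3 to the right of it.

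The auxiliary subunits of these channels also fell more often than they rose. From a list of 20 symbols, 19 were in the tables and 16 were tested. In edgeR's test 9 of the 16 were lower, against 12.8% of all genes, and 2 were higher, against 19.2%, with a median log2 fold change of -0.58. With pan-neuronal scaling 0 were lower and 3 higher, against 0.298% and 57.1% of all genes. Kcnab3, a cytoplasmic beta subunit of Kcna channels, had 106, 66.3, 40.0 and 85.7 CPM in the sham mice and 23.8, 34.4, 36.9 and 26.6 CPM in the BCAS mice. The groups did not overlap, with a log2 fold change of -1.29 (SE 0.28, edgeR adjusted p = 0.0113). Kcnab2, a further beta subunit, had a log2 fold change of -0.81 (SE 0.20, edgeR adjusted p = 0.0176). Lgi1, a secreted protein of Kcna complexes mutated in lateral temporal epilepsy, had a log2 fold change of -0.76 (SE 0.25, edgeR adjusted p = 0.0438). Kcnip4, a calcium-binding partner of Kcnd channels, had a log2 fold change of -0.71 (SE 0.20, edgeR adjusted p = 0.0287). Amigo1, a membrane partner of Kcnb channels, had a log2 fold change of -0.68 (SE 0.16, edgeR adjusted p = 0.0142), which is 0.04 with pan-neuronal scaling. In each of these 5 genes every BCAS mouse was below every sham mouse. Without sham mouse 1 or 2 the number lower was 2, and it was 3 without sham mouse 4 or BCAS mouse 3 and 4 without BCAS mouse 4, in fits with 2.37% to 4.19% of all genes lower.

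The auxiliary genes that rose belong to the single-span Kcne family. Kcne1l had 1.70, 3.00, 3.03 and 3.14 CPM in the sham mice and 20.8, 6.13, 11.5 and 13.9 CPM in the BCAS mice. Every BCAS mouse was above every sham mouse and BCAS mouse 1 was highest, with a log2 fold change of 2.27 (SE 0.37, edgeR adjusted p = 0.00426). Kcne4, an inhibitory partner of Kcnq1 and Kcna channels, had 1.25, 2.18, 2.29 and 1.57 CPM in the sham mice and 2.29, 2.52, 5.46 and 5.07 CPM in the BCAS mice. BCAS mice 3 and 4 were the high samples and BCAS mouse 1 was at the level of sham mouse 3, with a log2 fold change of 1.07 (SE 0.36, edgeR adjusted p = 0.0472).

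The potassium channels of other families were also compared. Of 41 genes listed (inward rectifier, tandem-pore, calcium- and sodium-activated), 34 were tested. In edgeR's test 14 were lower, against 12.8% of all genes, and 6 were higher, near the 19.2% of all genes, with a median log2 fold change of -0.47. With pan-neuronal scaling 1 (Kcnk4) was lower and 11 were higher, against 0.298% and 57.1%. Kcnk4, a mechanically gated leak channel of neurons, had 23.0, 17.2, 13.6 and 19.7 CPM in the sham mice and 3.52, 10.6, 9.02 and 5.18 CPM in the BCAS mice. The groups did not overlap, with a log2 fold change of -1.38 (SE 0.33, edgeR adjusted p = 0.0166). Kcnk3, an acid-sensitive leak channel, had a log2 fold change of -1.0 (SE 0.22, edgeR adjusted p = 0.0119). Kcnj11, the pore of the ATP-sensitive channel, had a log2 fold change of -0.98 (SE 0.26, edgeR adjusted p = 0.0234). Kcnj3, a G-protein-gated inward rectifier, had a log2 fold change of -0.96 (SE 0.24, edgeR adjusted p = 0.0185), and Kcnk12 a log2 fold change of -0.92 (SE 0.27, edgeR adjusted p = 0.0326).

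Kcnk6, a tandem-pore channel known from macrophages, rose most. It had 5.80, 5.37, 5.61 and 6.82 CPM in the sham mice and 63.6, 16.3, 32.3 and 30.2 CPM in the BCAS mice. Every BCAS mouse was above every sham mouse, BCAS mouse 1 was highest and BCAS mouse 2 lowest of its group, with a log2 fold change of 2.59 (SE 0.37, edgeR adjusted p = 0.00280). Kcnn4, a calcium-activated channel of immune cells, had a log2 fold change of 2.26 (SE 0.62, edgeR adjusted p = 0.0259). Kcnk5, an alkaline-activated leak channel, had a log2 fold change of 1.36 (SE 0.40, edgeR adjusted p = 0.0306). Kcnj2, a strong inward rectifier, had a log2 fold change of 1.21 (SE 0.19, edgeR adjusted p = 0.00421). Kcnk13, the leak channel of microglia, had a log2 fold change of 0.99 (SE 0.22, edgeR adjusted p = 0.0129). Beside these rises, all 12 microglia markers were higher, and their part was not tested. Without sham mouse 1, 2 or 4 the number lower was 5, 7 and 6, and without BCAS mouse 3 or 4 it was 9 and 6, in the same fits.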

How the data were processed

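RNA of the right cerebral cortex of 4 sham and 4 BCAS mice was sequenced. Per the labels, the authors used Trim Galore, HISAT2, SAMtools 1.9, featureCounts 1.6.3 and the mm10 build, while the headers give featureCounts 2.0.1 with GENCODE vM20 and no strand option. The authors deposited raw counts of read pairs per gene and, per the file headers, the exon length, which served for values per kilobase. Read pairs that fit more than 1 gene are left uncounted by default, and reads of a gene and an antisense partner cannot be told apart. Symbols matched 54723 of 54752 gene identifiers after the version was dropped, from GENCODE names one release later than the tables. No 2 libraries were identical.

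Counts were tested with edgeR 4.0.16 in R 4.3.3 (TMM normalization, filterByExpr with a minimum count of 10 and a minimum total of 15, quasi-likelihood test of BCAS against sham mice, no covariates). Benjamini-Hochberg adjustment ran over 17136 genes, with calls at an adjusted p under 0.05. The standard errors given were derived from this test, as the absolute log2 fold change divided by the square root of its F statistic. CPM values are TMM-normalized. Alternatives were DESeq2 1.42.0, limma-voom (limma 3.58.1), other scalings and filters, a replicate block and leaving out each library. Plots used Python 3.11.15 and matplotlib 3.10.9.

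Values in every mouse are given for members called by edgeR, for the highest member of each subfamily per kilobase in sham mice, and for members that ran against the median by more than 0.3 on the log2 scale. From the auxiliary and other potassium channel lists, up to 5 of the largest called rises and 5 of the largest called falls are named. Of the 37 members, 4 are not reported here, and every count of members covers the other 33. Members and lists were chosen with earlier results of these data known. A library was singled out within its group of 4 where the ratio of its gap to the group's range passed the 95% critical value of Dixon's test.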

Additional observations from a re-analysis of the deposited data

Results flagged for a closer look

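Kcnc2 in sham mouse 1 stood apart from the rest of its group, at 173 CPM against 146 to 149 CPM in the other sham mice. The gap to the nearest mouse was 0.878 of the whole range of the group, above the 95% critical value of Dixon's test for 4 samples. This was 1 flag among 66 groups tested (33 genes in 2 groups), and chance flags about 1 group in 20. Without sham mouse 1, the log2 fold change of Kcnc2 was -0.77 and was not called (edgeR adjusted p = 0.102).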

How the results depend on the processing

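Scaling on the 18 pan-neuronal genes left 2 subunits lower and made 2 higher, where 0.298% of all genes were lower and 57.1% higher. It moved the median log2 fold change of the subunits to -0.0024, and left 0 auxiliary subunits and 1 other potassium channel lower. Under it the log2 fold change turned positive for Kcna1 (0.15), Kcna3 (0.62), Kcna4 (0.42), Kcna6 (0.22), Kcnd1 (0.56), Kcnd2 (0.12), Kcnd3 (0.55), Kcnf1 (0.051), Kcng1 (0.19), Kcng3 (0.17), Kcng4 (0.44), Kcnh2 (0.41) and Kcnh6 (0.10). The number of subunits lower was 20 with RLE size factors (13.5% of all genes lower), 17 with library size alone (7.55%), 19 without the filter (5.16%), 19 of 31 tested with at least 10 counts in every library (13.5%), 21 with DESeq2 (18.2%) and 20 with limma-voom (13.7%), and 0 were higher in each. Leaving out each library gave 9 to 23 subunits lower, 2 to 13 auxiliary subunits and 5 to 18 other potassium channels, and a median of -0.90 to -0.47, with no sign change among the subunits and with 2.37% to 20.9% of all genes lower. The replicate block gave 13 subunits lower (6.58% of all genes), 12 of them among the 20. It ended the calls of Kcna1, Kcnc1, Kcnc2, Kcng2, Kcnh2, Kcnq3, Kcns1 and Kcns3 (edgeR adjusted p of 0.0505 to 0.0738) and added Kcnf1 (0.0424), with 6 auxiliary subunits and 9 other potassium channels. The labels number the mice within each group and do not state a pairing. Deviations of same-numbered mice correlated at -0.10 to 0.001, and 0 of 4 numbers correlated best with their own. With 4 mice per group, these correlations cannot settle whether the numbers pair the mice. These fits have fewer samples or residual degrees of freedom, and the cause of the other shifts was not tested. Depth limits low genes such as Kcnh8, which rests on 2 to 27 counts per library.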
